A study of Mus musculus with 6 samples.

Results

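The 51 genes described here encode proteins of DNA repair and of the DNA damage checkpoint, and they were chosen by name from a list covering homologous recombination, the Fanconi pathway, mismatch repair, base and nucleotide excision repair, end joining and the checkpoint kinases. All 51 were among the 22939 genes of the count table, and all 51 passed the filter on low counts that left 13463 genes for testing. RNA-seq covered 6 libraries, 3 untreated (ctrl-Treg) and 3 treated (Sora-Treg), to ask how sorafenib, called Sora here, a drug against liver cancer that inhibits several kinases, changes regulatory T (Treg) cells that arise in culture. In both groups naive CD4+ T cells came from C57BL/6J mice that carry a Foxp3-GFP knock-in allele. Antibodies to CD3, fixed to the plate, and to CD28 activated them, and TGF-β1 together with antibodies that block IFN-γ and IL4 directed them to the Treg fate. Sora was in the medium of the Sora-Treg cells only, at a dose that the labels of these libraries do not give. Cells were sorted for GFP, which the knock-in makes where Foxp3 is expressed, so each library represents the cells that had turned on Foxp3 in culture and not Treg cells of the thymus or of a tissue.

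DNA lesions are repaired by several routes that divide the work by the kind of lesion. Homologous recombination copies the sister chromatid and the Fanconi pathway removes crosslinks at replication forks, and both act mainly while DNA is replicated, whereas end joining, base excision and nucleotide excision also work in cells that do not divide. The checkpoint kinases ATM and ATR sense breaks and stalled forks and delay the cell cycle through CHK2 and CHK1. T cells divide fast after stimulation, and many recombination and checkpoint genes are transcribed together with the replication genes as a cell enters S phase.

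Total counts ranged from 30727686 to 37717324 per library, and the lowest count of any of the 51 genes in any library was 63. Values are CPM, that is counts brought to a common library size with TMM scaling, and are given in the order of libraries 1, 2 and 3. Of the 51 genes, 18 share exon bases with another tested gene, and since the treatment of strand in the counting was not stated, the larger overlaps are given beside the gene. The 7 T cell and Treg markers summed to between 3889 and 3930 CPM in ctrl-Treg and between 6801 and 6912 CPM in Sora-Treg. Most of that difference lay in Il2ra (mean 1934 to 3795 CPM) and Ctla4 (383 to 1108 CPM). Ikzf2 (147 to 149 CPM) and Cd4 (679 to 709 CPM) moved little. Foxp3 itself stood at 259 ± 8.99 CPM in ctrl-Treg and 272 ± 4.75 CPM in Sora-Treg (SD, n = 3). The 9 myeloid markers summed to 227, 232 and 149 CPM in ctrl-Treg and to 145, 177 and 144 CPM in Sora-Treg, so that ctrl-Treg libraries 1 and 2 were higher than the other 4, and each of the 9 overlapped between the groups. The 5 B cell markers summed to between 9.71 and 10.7 CPM in ctrl-Treg and between 6.09 and 7.68 CPM in Sora-Treg. The 2 CD8 markers summed to between 12.6 and 15.1 CPM over both groups with overlap, although Cd8a alone fell (2.65 ± 0.137 to 1.62 ± 0.186 CPM) with its groups apart. The 5 erythroid markers reached at most 0.157 CPM. None of these markers was at 0 in all 6 libraries, and their part in the results was not tested.

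Most of the repair and checkpoint genes were lower in Sora-Treg cells. Of the 51 genes, 38 fell (74.5%), 3 rose (5.88%) and 10 did not pass the test (edgeR quasi-likelihood test, Benjamini-Hochberg adjusted p under 0.05), where 29.9% of all tested genes fell and 29.7% rose. The median log2 fold change of the 51 genes was -0.40, beside -0.0035 over all tested genes. The 3 that rose were Xpa, Atr and Xrcc4. The 2 groups of libraries did not overlap for 41 of the 51 genes (80.4%), against 63.7% of all tested genes. Of all tested genes, 32.0% were apart with Sora-Treg lower. Of all tested genes 59.6% passed this test in either direction, so a single call is common in these libraries. With libraries scaled by their totals alone, 45 of the 51 genes fell and 2 rose, the median over all genes moved to -0.12, and the share of lower genes among all calls went from 50.2% to 66.2%. Relative to the median of all genes, the median of the 51 genes was -0.40 under both scalings. A change of scaling shifts all genes nearly alike, so this value could hardly have moved. When ctrl-Treg libraries 1 and 2, the ones with more myeloid RNA, were left out together, 36 genes were called lower and 2 higher. That fit compares a lone control library with 3 Sora-Treg libraries, takes its spread from the Sora-Treg libraries alone and assumes that the control varies like them.

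Changes of more than 2-fold were few. Exo1, Rad54l, Fancd2, Polq and Fancb fell by more than 2-fold, which is 5 of 51 genes (9.8%) beside 4.97% of all tested genes. No repair or checkpoint gene rose by more than 2-fold, beside 6.30% of all tested genes. Summed over the 51 genes, expression went from 2202, 2166 and 2233 CPM in ctrl-Treg to 1712, 1733 and 1748 CPM in Sora-Treg. The sum was 2201 ± 33.6 CPM in ctrl-Treg and 1731 ± 18.4 CPM in Sora-Treg (SD, n = 3), and every Sora-Treg library lay below every ctrl-Treg library. In RNA from many cells, fewer cells that express a gene and less RNA of it per cell cannot be told apart.

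**Figure D1:**
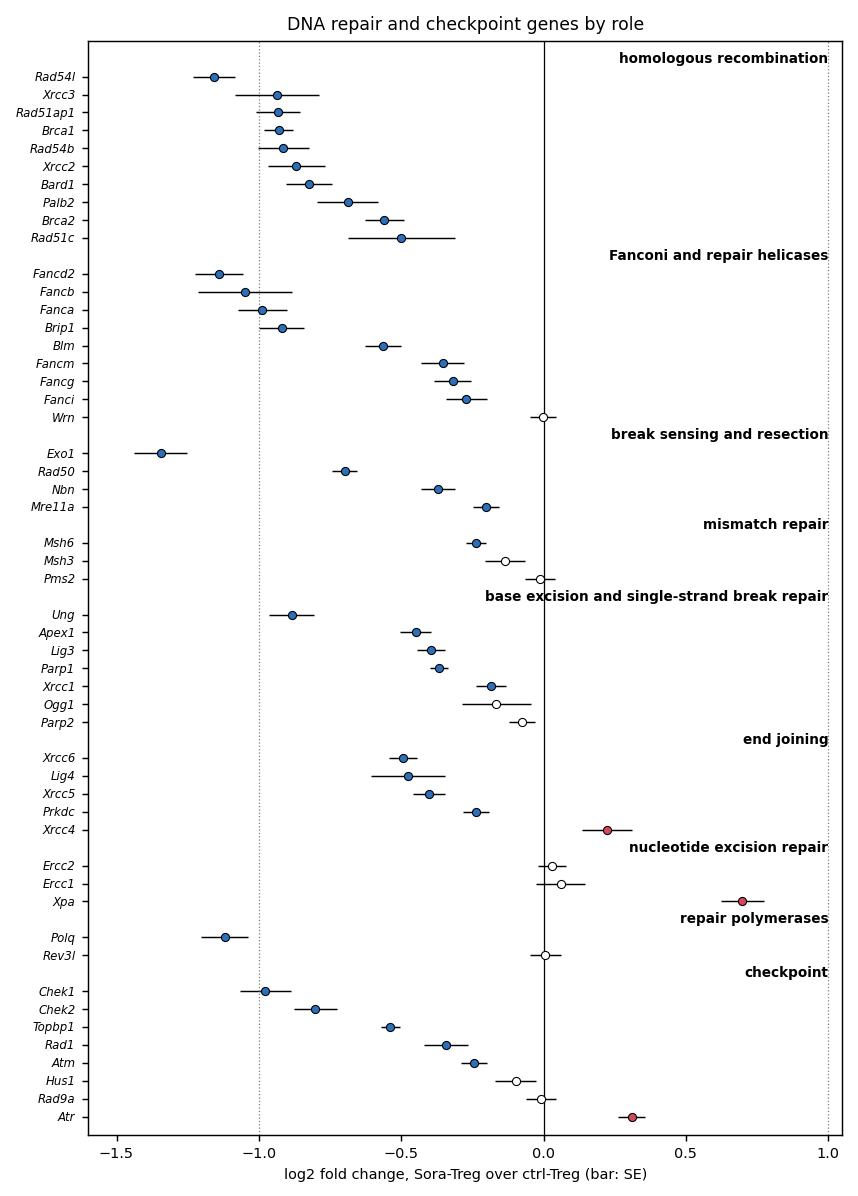
Each point is the log2 fold change of a gene in Sora-Treg over ctrl-Treg (x axis, edgeR), with its SE as a bar, grouped by role; blue genes fell, red genes rose and open points did not pass an adjusted p of 0.05, and the dotted lines mark a 2-fold change. All 10 homologous recombination genes lie left of 0, whereas Xpa, Atr and Xrcc4 are the 3 red points.

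Homologous recombination copies the intact sister chromatid to mend a break. All 10 of its genes among the 51 fell in Sora-Treg, with a median log2 fold change of -0.89, and their groups did not overlap. Recombination genes outside the 51 did not all fall. Rad52 rose by 0.36 ± 0.056 SE, adjusted p = 8.79e-06, and Sfr1 by 0.36 ± 0.036 SE, adjusted p = 9.92e-09, both on the log2 scale, and Swi5 did not pass the test (log2 fold change 0.071 ± 0.039 SE, adjusted p = 0.12). Rad54l, which encodes the motor protein RAD54, which acts in strand exchange with the sister duplex (chromosome 4, 116094261 to 116123700), measured 27.4, 26.1 and 29.0 CPM in ctrl-Treg and 12.8, 12.4 and 11.8 CPM in Sora-Treg. Every Sora-Treg value was more than 2-fold below every ctrl-Treg value, and the log2 fold change was -1.16 ± 0.074 (SE, adjusted p = 4.75e-12), a 2.23-fold fall. Rad51ap1, an accessory factor of strand exchange (chromosome 6, 126923415 to 126939621), measured 22.9, 22.7 and 24.3 CPM in ctrl-Treg and 12.8, 12.2 and 11.7 CPM in Sora-Treg. Its 3 Sora-Treg libraries lay close together and far below the ctrl-Treg libraries, with a log2 fold change of -0.93 ± 0.076 (SE, adjusted p = 3.16e-10). Xrcc3, a recombination factor (chromosome 12, 111803192 to 111813893), was low in all libraries, at 7.29, 6.07 and 6.48 CPM in ctrl-Treg and 3.10, 4.08 and 3.203 CPM in Sora-Treg. Its log2 fold change was -0.94 ± 0.15 (SE, adjusted p = 9.14e-06), with the highest Sora-Treg value in library 2.

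The BRCA genes and their partners fell as well. Brca1, whose protein recruits the recombination machinery, measured 56.4 ± 1.22 to 29.6 ± 1.28 CPM (ctrl-Treg to Sora-Treg, SD, n = 3). Its log2 fold change was -0.93 ± 0.050 (SE, adjusted p = 2.23e-13), and its partner Bard1 fell by 0.82 ± 0.079 on the log2 scale. Brca2, which acts in strand exchange, fell by 0.56 ± 0.069, and Palb2, which links BRCA1 to BRCA2, by 0.69 ± 0.11 on the same scale. Rad54b, a relative of Rad54l, fell by 0.91 ± 0.089 and the recombination factor Xrcc2 by 0.87 ± 0.10. Rad54b shares 39.1% of its exon bases with Fsbp on the same strand, and Fsbp went from 1.09 to 0.466 CPM, so reads of the 2 genes may not be fully separated. Rad51c, a partner of Xrcc3, measured 3.05, 3.79 and 3.60 CPM in ctrl-Treg and 2.08, 2.67 and 2.61 CPM in Sora-Treg. It had the smallest change of the role, a log2 fold change of -0.50 ± 0.19 (SE, adjusted p = 0.0263), and was the least expressed of the 51 genes in FPKM. The call of Rad51c was lost with DESeq2 (log2 fold change -0.50, adjusted p = 0.0525), and when ctrl-Treg library 2 (-0.43), ctrl-Treg library 3 (-0.48) or Sora-Treg library 1 (-0.39) was left out, with adjusted p from 0.0662 to 0.101. With ctrl-Treg library 3 as the lone control it was also lost (-0.55, adjusted p = 0.117).

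**Figure D2:**
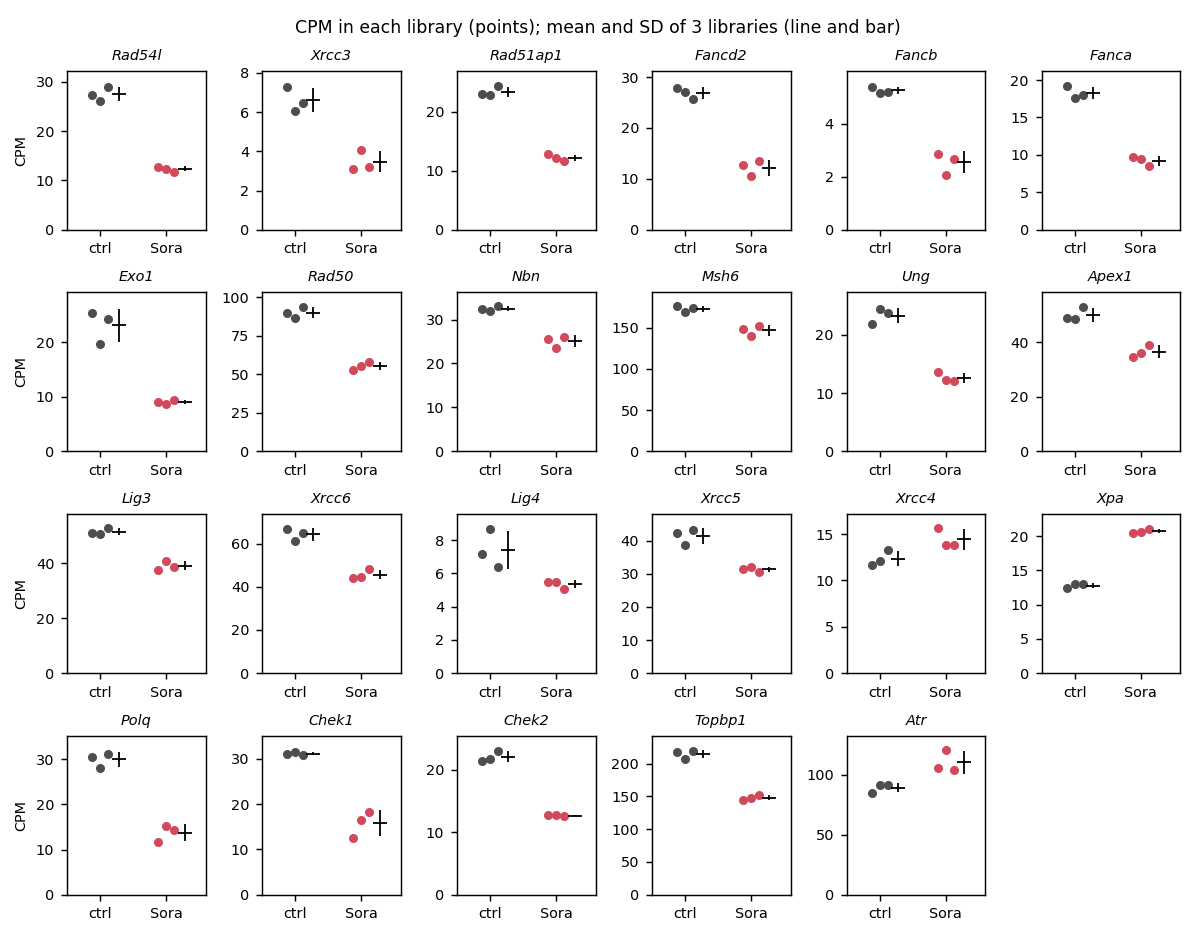
Each panel shows TMM-scaled CPM (y axis, from 0) of a named gene in the 3 ctrl-Treg (grey) and 3 Sora-Treg (red) libraries, with the mean and SD beside the points. The groups are apart in every panel, with Sora-Treg higher only for Xrcc4, Xpa and Atr.

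The Fanconi genes repair DNA crosslinks and protect stalled forks, and were grouped with the repair helicases. Of these 9 genes 8 fell and 1 did not pass the test, with a median log2 fold change of -0.56. Fancd2 encodes one of the pair of proteins that is ubiquitinated to start crosslink repair (chromosome 6, 113531640 to 113597020), and measured 27.9, 27.1 and 25.6 CPM in ctrl-Treg and 12.7, 10.5 and 13.4 CPM in Sora-Treg. Every Sora-Treg value was below every ctrl-Treg value by a wide margin, at a log2 fold change of -1.14 ± 0.084 (SE, adjusted p = 5.90e-11). Fancb and Fanca belong to the core complex that carries out this ubiquitination. Fancb (chromosome X, 164980480 to 164997272) measured 5.38, 5.17 and 5.198 CPM in ctrl-Treg and 2.87, 2.07 and 2.67 CPM in Sora-Treg, with a log2 fold change of -1.05 ± 0.16 (SE, adjusted p = 8.86e-06). Fanca (chromosome 8, 123266294 to 123318651) measured 19.2, 17.6 and 18.0 CPM in ctrl-Treg and 9.72, 9.44 and 8.48 CPM in Sora-Treg, with a log2 fold change of -0.99 ± 0.086 (SE, adjusted p = 1.06e-09). Both were lower in each Sora-Treg library than in any ctrl-Treg library.

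Among the other Fanconi genes, Brip1, a helicase that binds BRCA1, fell by 0.92 ± 0.080 on the log2 scale. Smaller changes were measured for Fancm, the translocase that brings the core complex to DNA (fell by 0.35 ± 0.076), for the core member Fancg (fell by 0.32 ± 0.065) and for Fanci, the partner of Fancd2 (fell by 0.27 ± 0.073). Fanci shares 13.4% of its exon bases with Polg on the opposite strand, and Polg rose by 0.31 on the log2 scale. Of the 2 RecQ helicases, Blm, which dissolves recombination intermediates, fell by 0.56 ± 0.063 on the log2 scale, while Wrn measured 46.6, 45.1 and 46.5 CPM in ctrl-Treg and 45.1, 47.1 and 45.8 CPM in Sora-Treg. The Wrn libraries overlapped and its log2 fold change was -0.00082 ± 0.046 (SE, adjusted p = 0.989).

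Break sensing and end resection begin the repair of a double-strand break, and all 4 of their genes fell, with a median log2 fold change of -0.54. Exo1, the exonuclease that makes long single-stranded ends (chromosome 1, 175880768 to 175911396), had the largest change of the 51 genes and measured 25.4, 19.7 and 24.4 CPM in ctrl-Treg and 9.13, 8.78 and 9.41 CPM in Sora-Treg. The ctrl-Treg library 2 was the lowest of its group and still lay more than 2-fold above each Sora-Treg library, and the log2 fold change was -1.35 ± 0.094 (SE, adjusted p = 2.26e-11). Rad50, the structural subunit of the MRN break sensor (chromosome 11, 53649519 to 53707319), measured 90.1, 86.8 and 93.7 CPM in ctrl-Treg and 52.8, 55.6 and 58.2 CPM in Sora-Treg. Nbn, the subunit that brings ATM to the break (chromosome 4, 15957587 to 15992589), measured 32.4, 31.9 and 33.0 CPM in ctrl-Treg and 25.5, 23.6 and 26.1 CPM in Sora-Treg. The groups were apart for both genes. The log2 fold change was -0.70 ± 0.044 (SE, adjusted p = 4.15e-12) for Rad50 and -0.37 ± 0.060 (SE, adjusted p = 1.42e-05) for Nbn. Mre11a, the nuclease of the same complex, fell by 0.20 ± 0.046 on the log2 scale.

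Mismatch repair corrects replication errors, and 1 of its 3 genes fell (33.3%), near the 29.9% of all tested genes. Msh6, a subunit of the MutS alpha mismatch sensor (chromosome 17, 87975050 to 87990892), measured 176, 169 and 173 CPM in ctrl-Treg and 148, 139.5 and 152 CPM in Sora-Treg. The Sora-Treg libraries were modestly lower without overlap, at a log2 fold change of -0.24 ± 0.035 (SE, adjusted p = 4.02e-06). Msh3 (log2 fold change -0.14 ± 0.070 SE, adjusted p = 0.101) and Pms2 (log2 fold change -0.011 ± 0.052 SE, adjusted p = 0.87) did not pass the test, and their libraries overlapped. Msh3 was called lower in some alternatives, such as edgeR with upper quartile scaling (log2 fold change -0.17, adjusted p = 0.037). Msh3 encodes the MutS beta subunit and Pms2 the endonuclease subunit of MutL alpha.

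Base excision and single-strand break repair remove damaged bases and reseal nicks, and 5 of their 7 genes fell, with a median log2 fold change of -0.37. Ung, the glycosylase that removes uracil from DNA (chromosome 5, 114130366 to 114139321), measured 21.8, 24.4 and 23.8 CPM in ctrl-Treg and 13.6, 12.2 and 12.1 CPM in Sora-Treg. It had the largest change of the role, -0.88 ± 0.079 (SE, adjusted p = 1.55e-09) on the log2 scale, and no overlap between the groups. Apex1, which cuts the backbone at the abasic site (chromosome 14, 50924949 to 50927188), measured 48.8, 48.4 and 53.01 CPM in ctrl-Treg and 34.5, 36.2 and 39.0 CPM in Sora-Treg, with a log2 fold change of -0.45 ± 0.055 (SE, adjusted p = 2.31e-07). Apex1 shares 70.8% of its exon bases with Pip4p1 on the opposite strand, whose log2 fold change was 0.34. Lig3, the ligase that seals the nick (chromosome 11, 82781109 to 82804274), measured 51.001, 50.4 and 52.8 CPM in ctrl-Treg and 37.5, 40.9 and 38.7 CPM in Sora-Treg. Its groups were apart with a log2 fold change of -0.40 ± 0.049 (SE, adjusted p = 2.92e-07), and it shares 27.9% of its exon bases with Rffl (log2 fold change -0.15, which did not pass the test).

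Parp1, which senses strand breaks and builds poly(ADP-ribose) on them, fell by 0.37 ± 0.032 on the log2 scale, and the scaffold Xrcc1 fell by 0.18 ± 0.053. The call of Xrcc1 was lost without ctrl-Treg library 2 (log2 fold change -0.13, adjusted p = 0.0578) and with ctrl-Treg library 3 as the lone control (log2 fold change -0.14, adjusted p = 0.159). Parp2, a relative of Parp1 (log2 fold change -0.076 ± 0.045 SE, adjusted p = 0.157), and Ogg1, the glycosylase for oxidized guanine (log2 fold change -0.17 ± 0.12 SE, adjusted p = 0.245), did not pass the test and overlapped between the groups. Parp2 was called lower in some alternatives, such as edgeR with upper quartile scaling (log2 fold change -0.11, adjusted p = 0.0334).

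End joining reconnects broken ends without a template, and also seals the breaks made when T cell receptor genes are assembled. Of its 5 genes 4 fell and 1 rose, and the median log2 fold change was -0.40. The Ku subunits bind the ends first. Xrcc6, which encodes Ku70 (chromosome 15, 81987833 to 82040085), measured 66.8, 61.2 and 64.9 CPM in ctrl-Treg and 44.2, 44.6 and 48.1 CPM in Sora-Treg. Xrcc5, which encodes Ku80 (chromosome 1, 72307417 to 72394953), measured 42.4, 38.7 and 43.2 CPM in ctrl-Treg and 31.4, 31.9 and 30.6 CPM in Sora-Treg. Both were lower in Sora-Treg without overlap, with a log2 fold change of -0.49 ± 0.048 (SE, adjusted p = 7.08e-09) for Xrcc6 and of -0.40 ± 0.055 (SE, adjusted p = 1.42e-06) for Xrcc5. Prkdc, the kinase that Ku recruits, fell by 0.24 ± 0.046 on the log2 scale.

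Of the ligation pair of end joining, Lig4 fell and Xrcc4 rose, the latter a call that most alternatives lost. Lig4, the ligase (chromosome 8, 9970020 to 9977680), measured 7.14, 8.68 and 6.39 CPM in ctrl-Treg and 5.50, 5.46 and 5.06 CPM in Sora-Treg, with the highest ctrl-Treg value in library 2. Its log2 fold change was -0.47 ± 0.13 (SE, adjusted p = 0.00325), and with ctrl-Treg library 3 as the lone control, where the spread rests on Sora-Treg alone, the log2 fold change was -0.26 (adjusted p = 0.287). Xrcc4, the scaffold that holds LIG4 (chromosome 13, 89848914 to 90089608), measured 11.7, 12.1 and 13.3 CPM in ctrl-Treg and 15.7, 13.8 and 13.8 CPM in Sora-Treg. The lowest Sora-Treg value was only slightly above the highest ctrl-Treg value. The log2 fold change of Xrcc4 was 0.22 ± 0.088 (SE, adjusted p = 0.0334), and this call was lost in 11 of 18 alternatives, in which the log2 fold change still lay between 0.092 and 0.22.

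Nucleotide excision repair removes bulky lesions such as those made by ultraviolet light. Of its 3 genes Xpa rose (33.3%, near the 29.7% of all tested genes) and the other 2 did not pass the test. Xpa, the protein that verifies the damaged strand (chromosome 4, 46175220 to 46196344), measured 12.4, 13.0 and 13.0 CPM in ctrl-Treg and 20.5, 20.6 and 21.1 CPM in Sora-Treg. Both groups were tight and clearly apart, and the log2 fold change of 0.70 ± 0.075 (SE, adjusted p = 3.15e-08) was the highest of the 51 genes, a 1.62-fold rise. Xpa shares 5.37% of its exon bases with Ncbp1 on the opposite strand, and Ncbp1 fell by 0.21 on the log2 scale. Ercc2, a helicase of TFIIH, had a log2 fold change of 0.029 ± 0.050 (SE, adjusted p = 0.639) and Ercc1, a subunit of the nuclease that cuts beside the lesion, one of 0.061 ± 0.086 (SE, adjusted p = 0.564), and for both the groups overlapped and the sign turned negative with libraries scaled by their totals. Ercc2 shares 16.4% of its exon bases with Klc3 on the opposite strand, which rose by 0.52 on the log2 scale.

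Of the 2 repair polymerases, 1 fell. Polq, which fills in ends joined through short homologies (chromosome 16, 37011741 to 37095419), measured 30.6, 28.2 and 31.3 CPM in ctrl-Treg and 11.7, 15.3 and 14.3 CPM in Sora-Treg. The Sora-Treg libraries lay far below the ctrl-Treg libraries, with a log2 fold change of -1.12 ± 0.083 (SE, adjusted p = 6.84e-11). Rev3l, the catalytic subunit of the translesion polymerase zeta, measured 59.4, 66.3 and 64.8 CPM in ctrl-Treg and 59.7, 70.0 and 61.4 CPM in Sora-Treg, with overlapping groups and a log2 fold change of 0.0060 ± 0.054 (SE, adjusted p = 0.933).

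The checkpoint genes sense damage and halt the cell cycle. Of their 8 genes 5 fell, 1 rose and 2 did not pass the test, and the median log2 fold change was -0.29. Chek1, the effector kinase of ATR (chromosome 9, 36708482 to 36726658), measured 31.1, 31.6 and 30.8 CPM in ctrl-Treg and 12.6, 16.5 and 18.2 CPM in Sora-Treg. Sora-Treg library 1 was the lowest and no library crossed into the other group, at a log2 fold change of -0.98 ± 0.090 (SE, adjusted p = 2.58e-09). Chek2, the effector kinase of ATM (chromosome 5, 110839800 to 110874140), measured 21.4, 21.8 and 23.0 CPM in ctrl-Treg and 12.7, 12.7 and 12.6 CPM in Sora-Treg. Its 3 Sora-Treg values were nearly the same, and its log2 fold change was -0.80 ± 0.075 (SE, adjusted p = 3.30e-09). Topbp1, the scaffold that activates ATR (chromosome 9, 103305167 to 103350428), measured 217, 208 and 219 CPM in ctrl-Treg and 145, 148 and 152 CPM in Sora-Treg. Its log2 fold change was -0.54 ± 0.033 (SE, adjusted p = 1.95e-12), with a clear gap between the groups.

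The apical kinases differed in direction. Atr (chromosome 9, 95857597 to 95953217) measured 84.9, 91.4 and 91.2 CPM in ctrl-Treg and 106, 121 and 104 CPM in Sora-Treg. Its log2 fold change was 0.31 ± 0.048 (SE, adjusted p = 8.24e-06), with Sora-Treg library 2 the highest, and the call was kept in every alternative but limma on unfiltered FPKM values (log2 fold change 0.17, adjusted p = 0.0862). Atm fell and measured 94.6, 91.9 and 102 CPM in ctrl-Treg and 77.2, 85.9 and 80.4 CPM in Sora-Treg, with a log2 fold change of -0.24 ± 0.045 (SE, adjusted p = 7.05e-05). Of the 3 genes of the checkpoint clamp, the ring that loads at damaged DNA, Rad1 fell by 0.34 ± 0.077 on the log2 scale, while Rad9a (log2 fold change -0.010 ± 0.053 SE, adjusted p = 0.882) and Hus1 (log2 fold change -0.10 ± 0.072 SE, adjusted p = 0.256) did not pass the test. Rad9a shares 10.8% of its exon bases with Ppp1ca on the opposite strand, which was counted far more often.

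Many of these proteins work as pairs, so the ratio of the counts of 2 partners or relatives was taken within each library, where the scaling between libraries cancels. Of 17 pairs, 9 had no overlap between the groups, where 63.7% of single tested genes had none. No such share was computed over other pairs, so the count of 9 is a description. With 3 libraries against 3 an exact two-sided permutation test cannot go below 0.1, and all 9 reached that p, which is 0.189 after Benjamini-Hochberg adjustment over the 17 pairs, so no pair passed. The log2 ratio of Fancd2 to Fanci was 0.085, 0.11 and -0.23 in ctrl-Treg and -0.85, -1.03 and -0.79 in Sora-Treg, a difference of -0.88. The 2 proteins act as a clamp, and per length their FPKM ratio went from 0.96 in ctrl-Treg to 0.521 in Sora-Treg. The log2 ratio of Xrcc4 to Lig4 was 0.71, 0.47 and 1.06 in ctrl-Treg and 1.51, 1.34 and 1.45 in Sora-Treg, a difference of 0.68. The log2 ratio of Atm to Atr was 0.16, 0.0091 and 0.17 in ctrl-Treg and -0.46, -0.50 and -0.38 in Sora-Treg, a difference of -0.55. For all 3 pairs the groups were separated, and for Xrcc4 and Lig4 the ctrl-Treg libraries were widely spread.

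Within the MRN complex, the log2 ratio of Rad50 to Mre11a was 0.74, 0.61 and 0.68 in ctrl-Treg and 0.091, 0.17 and 0.28 in Sora-Treg, a difference of -0.50, and that of Rad50 to Nbn differed by -0.33. In FPKM, Rad50 stood 3.46-fold above Mre11a in ctrl-Treg and 2.45-fold in Sora-Treg. These 2 values rest on the lengths implied by the deposited FPKM, 5153 bases for Rad50 and 11133 bases for Mre11a. By counts alone the mean log2 ratio was 0.68 in ctrl-Treg and 0.18 in Sora-Treg. The other pairs without overlap were Rad51c and Xrcc3 (difference of the log2 ratio 0.43), Parp1 and Parp2 (-0.29), Rad1 and Hus1 (-0.25), and Rad54l and Rad54b (-0.24). The ratio of Brca1 to Bard1 overlapped between the groups, with a difference of -0.11, as did Brca2 to Palb2 (0.13), Xrcc5 to Xrcc6 (0.093) and Xrcc1 to Lig3 (0.21). Chek1 to Chek2 (-0.20), Msh6 to Msh3 (-0.10), Rad9a to Hus1 (0.084) and Brip1 to Brca1 (0.013) overlapped as well.

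**Figure D3:**
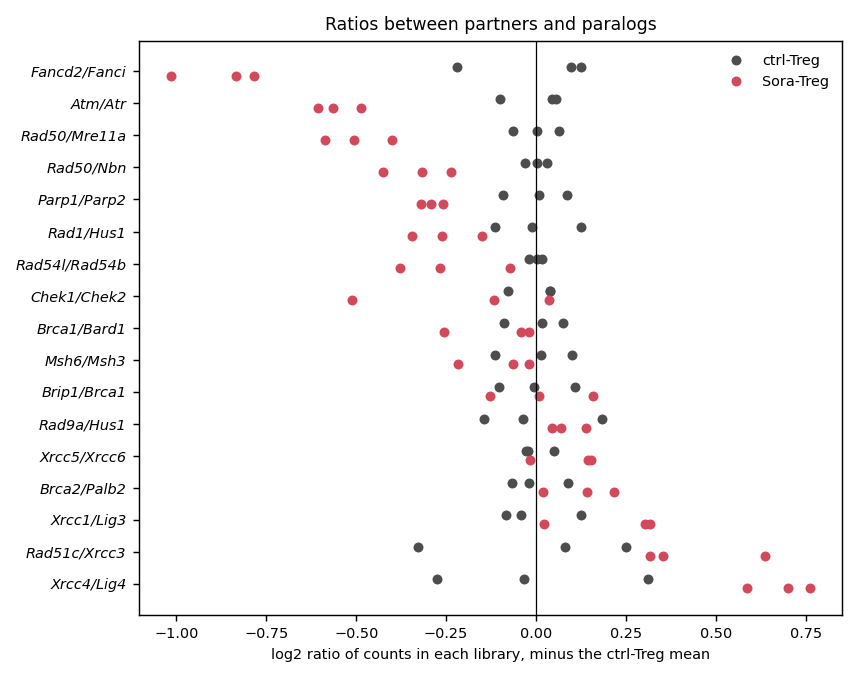
The x axis is the log2 ratio of the counts of 2 genes in each library, minus the ctrl-Treg mean of that pair, with 1 point per library (grey ctrl-Treg, red Sora-Treg). The mean of the Sora-Treg points lies farthest to the left for Fancd2/Fanci (-0.88) and farthest to the right for Xrcc4/Lig4 (0.68), and 8 of the 17 pairs overlap.

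Levels between genes were compared in FPKM, which divides by gene length. In ctrl-Treg the 51 genes ran from 0.824 ± 0.089 FPKM for Rad51c to 52.2 ± 1.25 FPKM for Parp1 (SD, n = 3), with a median of 5.69 FPKM. Parp1 was followed by Msh6 at 42.2 ± 1.04 FPKM, Topbp1 at 40.4 ± 1.25 FPKM and Apex1 at 39.8 ± 2.03 FPKM, of which Topbp1 and Apex1 did not differ beyond their spread. In Sora-Treg, Parp1 (37.4 ± 0.769 FPKM) and Msh6 (33.0 ± 1.47 FPKM) again led, and Apex1 (26.9 ± 1.64 FPKM) and Topbp1 (25.7 ± 0.579 FPKM) had changed places within their spread. Across the 51 genes, which are not independent replicates, the log2 fold change had a Spearman rho of 0.373 with the ctrl-Treg FPKM and of -0.0811 with gene length. The ctrl-Treg libraries enter both the FPKM and the fold change, and no test was run on either value.

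Because recombination and replication genes share their timing in the cell cycle, the set was placed beside 3 lists of related genes. Of 48 replication genes 43 fell and 2 rose (median log2 fold change -0.49), and all 26 mitosis genes fell (median -0.68). Pcna, the replication clamp, went from 308 ± 9.81 to 251 ± 2.01 CPM and Mki67, a marker of dividing cells, from 466 ± 17.4 to 291 ± 11.5 CPM, with log2 fold changes of -0.30 ± 0.029 (SE, adjusted p = 9.91e-09) and -0.68 ± 0.032 (SE, adjusted p = 2.14e-14). Of the 51 repair and checkpoint genes, 23 lay below the replication median and 18 below the mitosis median. Among the 10 homologous recombination genes, 8 lay below the mitosis median.

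Sums over the genes were also compared within each library. The log2 ratio of the summed CPM of the homologous recombination genes to that of the replication genes was -4.12, -4.17 and -4.13 in ctrl-Treg and -4.62, -4.57 and -4.57 in Sora-Treg, a difference of -0.45. Against the mitosis genes the difference was -0.20. The recombination sum fell by more than the replication and the mitosis sum, and the groups did not overlap in either ratio. They did not overlap in the ratios of any other role or of all 51 genes either, so the lack of overlap was not particular to recombination. Each sum is led by its most expressed genes, for which no adjustment was made. For the other roles the difference against the replication genes was -0.12 in break sensing, -0.039 in the Fanconi group, 0.091 in end joining, 0.096 in base excision, 0.15 in both the checkpoint genes and the repair polymerases, 0.24 in mismatch repair and 0.59 in nucleotide excision repair. Against the mitosis genes the difference was above 0 in each of these roles, from 0.12 in break sensing to 0.83 in nucleotide excision repair. For all 51 genes it was 0.079 against replication and 0.32 against mitosis. In separate cultures, the study reports from dye dilution that Sora slowed Treg proliferation slightly, and that it raised apoptosis. Whether the share of dividing cells moved with these values was not tested.

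**Figure D4:**
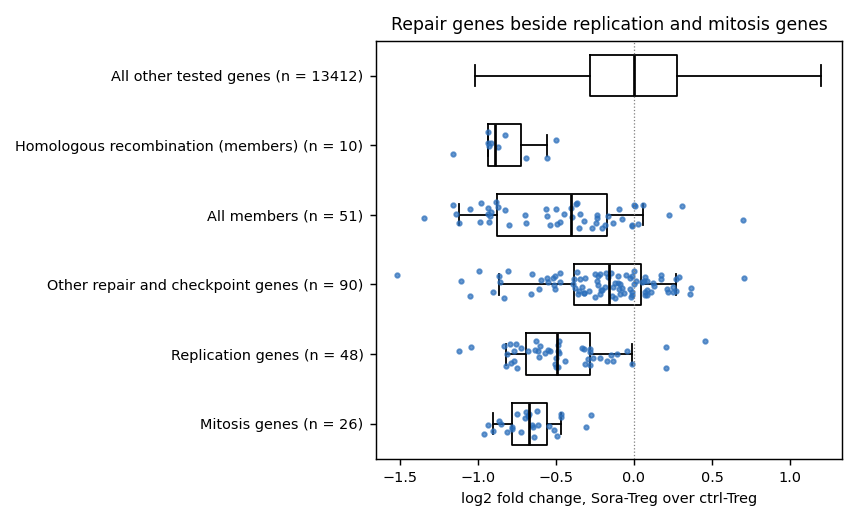
Boxes show the median and quartiles of the log2 fold change (x axis) and whiskers the 5th to 95th percentiles, with each gene of the shorter lists as a point. The median of the homologous recombination genes (-0.89) lies left of those of the replication (-0.49) and mitosis (-0.68) genes, and the median of all 51 genes (-0.40) lies to the right of both.

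A list of other genes of repair and the checkpoint served as a further comparison. Of 93 listed, 91 were in the table and 90 were tested, of which 44 fell (48.9%), 10 rose (11.1%) and 36 did not pass, with a median log2 fold change of -0.16. The 3 largest changes of that list were in Recql4, a RecQ helicase that also acts in replication (log2 fold change -1.52 ± 0.077 SE, adjusted p = 7.22e-14), Ercc8, which acts in transcription-coupled repair (-1.11 ± 0.15 SE, adjusted p = 7.43e-07), and Eme1, a subunit of a junction-cutting nuclease (-1.05 ± 0.11 SE, adjusted p = 2.90e-08). All 3 were lower in Sora-Treg without overlap. Of the 10 that rose, Neil2, a glycosylase of base excision repair, had the largest change (log2 fold change 0.70 ± 0.18 SE, adjusted p = 0.00196), and Fance, of the Fanconi core complex (0.29 ± 0.077 SE, adjusted p = 0.00285), and Ercc6, which acts in transcription-coupled repair (0.27 ± 0.042 SE, adjusted p = 7.33e-06), rose as well. These 3, Rad52, Sfr1 and Swi5 were chosen after their values were seen. The share of lower genes was not tested against that of the 51.

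Promoters were searched because so many of these genes moved the same way. RefSeq promoter sequences on GRCm38.p6 (250 bases before to 50 after an annotated start) were at hand for 41 of the 51 genes. An E2F word, any of TTTCCCGC, TTTCGCGC, TTTGCCGC and TTTGGCGC on either strand, was present in 9 of the 41 genes (22%), and in 2.6% of all 27025 genes with a promoter and 4.67% of those tested here. E2F factors are the transcription factors that turn on replication genes at the start of S phase. The word was present in 8 of the 31 genes that fell (25.8%) and in 1 of the 10 others, Msh3. The genes that held it and fell had log2 fold changes from -0.82 (Bard1) to -0.24 (Msh6). Rad54l, Polq and Fancb, which fell by more than 2-fold, held no such word, and no promoter was at hand for Exo1 and Fancd2. Whether the word goes with the size of the fall was not tested. For Rad51c and Msh6 the E2F word lay at or after the start. For the other genes that held it, it lay upstream of the start used by the table. The stretches of 30 bases around it in the 6 of these genes that fell are shown 5′ to 3′ on the strand of the gene with the word in capitals, because the E2F word was the one of the 3 kinds of word searched whose share lay farthest above that of all genes.
Brca2, chr5:150522442-150522471, plus strand: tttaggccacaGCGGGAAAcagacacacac
Bard1, chr1:71103163-71103192, minus strand: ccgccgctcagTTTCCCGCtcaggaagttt
Fancg, chr4:43010335-43010364, minus strand: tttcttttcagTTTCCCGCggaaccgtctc
Xrcc6, chr15:82016312-82016341, plus strand: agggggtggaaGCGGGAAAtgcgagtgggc
Chek2, chr5:110839820-110839849, plus strand: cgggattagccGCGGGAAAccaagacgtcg
Topbp1, chr9:103305187-103305216, plus strand: ccgctcggttgGCGCGAAAgtcggttcccg
The stretch of Bard1 lies upstream of the annotated gene. The other 5 lie inside the annotated span of their gene, which begins before the start used by the table. Msh3 holds 2 E2F words, which overlap each other. Of the other words searched, CCAAT on either strand was present in 53.7% of the 41 genes and 41.1% of all genes, and TTTGAA, the CHR word of mitosis genes, in 7.32% and 20.2%. None of the E2F words shown contains either of these. A match gives letters only, and was not tested against binding.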

How the data were processed

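The authors deposited raw counts and FPKM per gene symbol for 22939 genes. The methods of the study name Bowtie2 and GRCm38, whereas the submitters' processing notes list fastp, HISAT2, HTSeq, R 3.2.0, DESeq2 and GRCm39, so the pipeline is uncertain, and the treatment of strand was not given in the sources used here. Dividing each count by its deposited FPKM and by the total of its library gave the same length in every library (largest relative spread 1.64e-06), so FPKM adds no independent measurement. Groups and replicate numbers came from the sample titles. Nothing says that replicates came from separate cultures or animals, so p-values measure the spread between these samples.

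Counts were tested with the quasi-likelihood test of edgeR 4.0.16 (R 4.3.3), TMM scaling, filterByExpr (13463 genes) and Benjamini-Hochberg adjustment at 0.05 over all tested genes. The SE is the one implied by the F statistic, and the biological coefficient of variation was 4.29%. Groups of libraries were said not to overlap when every CPM of one was above every CPM of the other. Partner ratios used exact two-sided permutation tests. The scripts were tested on simulated data. The 51 genes, their roles, the lists (other repair and checkpoint genes, replication, mitosis, p53, cell markers) and the pairs were chosen with earlier results of these data known. In each role, the 3 genes with the largest change among those that passed, and the largest that rose, are given per library, and the others by fold change or range, except Rad51c, Wrn, Rev3l and Atm, given per library after their values were seen. A floor of 3 counts equals 0.0795 to 0.0976 CPM, which covers counting error only. Alternatives were other scalings and filters, DESeq2 1.42.0, limma 3.58.1 on log2(FPKM + 1) or log2(FPKM + 0.1) with or without a filter of mean FPKM 0.5, a replicate block, removal of a length trend, and libraries left out. Same-numbered libraries did not deviate together (r -0.0438, 0.0591 and 0.0299). Coordinates are from RefSeq on GRCm38.p6 and shared exon bases from GENCODE M21, both matched by symbol. H2afx and Atrip were not analysed here.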

Additional observations from a re-analysis of the deposited data

How the results depend on the processing

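Of the 51 genes, 36 kept direction and call under all 18 alternatives, as did 35 of the 38 that fell. The counts of genes lower stayed between 36 and 45. With library totals 12 genes fell by more than 2-fold and the median was -0.52, and on log2(FPKM + 0.1) 9 did with a median of -0.51. On log2(FPKM + 1), with or without the filter, 1 gene did, and without the filter 1 gene rose. Leaving out each library in turn gave 36 to 38 genes lower, 2 to 3 higher, 5 to 7 lower beyond 2-fold and a median between -0.43 and -0.39. A replicate block, for numbers that do not pair the samples, gave 38 lower, 3 higher, 5 beyond 2-fold and a median of -0.40. It changed no call among the 51 genes.

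With library totals Wrn, Msh3, Pms2, Ogg1, Parp2, Rad9a and Hus1 were also called lower, with log2 fold changes from -0.28 to -0.12. With the filter, Msh3, Ogg1, Parp2, Rad9a and Hus1 were called lower on log2(FPKM + 1) and log2(FPKM + 0.1), and Parp2 also without it. Upper quartile scaling called Msh3 (-0.17) and Parp2 (-0.11) lower, and Msh3 was called lower without Sora-Treg library 1 (-0.20). Genes whose sign changed were among the 10 that did not pass. Wrn turned to 0.0035 with RLE scaling, 0.0031 with the CPM filter, 0.0014 with DESeq2, 0.00078 without the length trend and lay between -0.015 and 0.016 without 1 library. Pms2 lay between -0.056 and 0.023 without 1 library. Ercc1 turned to -0.055 with library totals, -0.046 on log2(FPKM + 1) with or without the filter and -0.050 on log2(FPKM + 0.1). Ercc2 turned to -0.0090 with upper quartile scaling, -0.086 with library totals, -0.077 on log2(FPKM + 1), -0.081 on log2(FPKM + 0.1) and lay between -0.023 and 0.073 without 1 library. Rev3l turned to -0.032 with upper quartile scaling, -0.11 with library totals, -0.0084 with a count of at least 1, -0.095 on log2(FPKM + 1), -0.11 on log2(FPKM + 0.1), -0.0028 without the length trend, -0.023 without ctrl-Treg libraries 1 and 2, and lay between -0.064 and 0.052 without 1 library. Rad9a turned to 0.014 without the length trend and lay between -0.048 and 0.024 without 1 library, and Hus1 to 0.017 without ctrl-Treg libraries 1 and 2. The ratio of Brip1 to Brca1 turned negative without ctrl-Treg library 3 or Sora-Treg library 2, and lay between -0.060 and 0.083 without 1 library. The cause was not tested. Every count of the 51 genes was at least 63, and 48 of them had at least 100 in each library.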

Other observations

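The p53 pathway responds to the same damage signals as the checkpoint kinases. Of 24 genes listed as p53 and its targets 23 were lower in Sora-Treg, none was higher and 1 did not pass the test (edgeR adjusted p under 0.05), with a median log2 fold change of -0.53. That is 95.8% lower, beside 29.9% of all tested genes. Falls of more than 2-fold were measured for 6 of the 24 (25%), beside 4.97% of all tested genes. Eda2r, among the 6, was hardly expressed (0.545 CPM on average in ctrl-Treg). Trp53, which encodes p53, measured 146, 140.3 and 145 CPM in ctrl-Treg and 95.7, 93.1 and 97.7 CPM in Sora-Treg. Cdkn1a, the cell cycle inhibitor p21 and a target of p53, measured 406, 425 and 415 CPM in ctrl-Treg and 343, 330.1 and 345 CPM in Sora-Treg. Both were apart between the groups, with log2 fold changes of -0.59 ± 0.035 (SE, adjusted p = 1.37e-12) and -0.29 ± 0.028 (SE, adjusted p = 5.55e-09). Many p53 targets are also expressed for other reasons, and the share of lower genes was not tested against that of any other list.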
